A study of Homo sapiens with 4 samples.

Results

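The comparison described here is that of MHCC-97H cells given migrasomes (Migs) from hypoxic cells against the same cells given Migs from normoxic cells. MHCC-97H is an established, highly metastatic line of hepatocellular carcinoma (HCC), and the labels name it as the recipient in every group. The comparison rests on 2 of the 4 RNA-seq libraries of the series, with 1 library per condition. Of 58735 genes counted, 19895 reached 10 reads in 1 or more of the 4 libraries. The 13282 of these with at least 50 reads in both libraries compared, called well counted below, were described. Among them 11997 are protein-coding, and 6753 had at least 1000 reads in both libraries and are called abundant.

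The recipient cells were wild type and were treated for 24 h in each group. The normo-Migs group received 2 μg of Migs released by MHCC-97H cells in normoxia, and the hypo-Migs group 2 μg of Migs released by MHCC-97H cells in hypoxia. For scale, the CD147KO-Migs group (2 μg of Migs from hypoxic MHCC-97H cells with CD147 knocked out) and the PBS group were set beside them. All libraries carry the same batch label, and the number of cultures behind each is not stated. For normo-Migs, the labels and the supplementary methods name normoxia, whereas the main methods name hypoxia, so the labels were followed. Reads on genes numbered 34559968 for normo-Migs, 40285223 for hypo-Migs, 35043203 for CD147KO-Migs and 33882496 for PBS. With 1 library per condition the variation between cultures is unknown, so no p-value is given. Each log2 fold change (hypo-Migs minus normo-Migs, after TMM scaling) has an exact 95% interval of the ratio of reads, written in square brackets. These intervals cover counting error only, since they rest on the reads of the 2 libraries and hold no variation between cultures. The reads carry no molecular identifiers, so copies made by amplification count as separate reads and the intervals may be too narrow. In bulk RNA, fewer cells of a type and less RNA per cell cannot be told apart.

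Migs are large vesicles that form on the retraction fibres of migrating cells, on membrane domains rich in tetraspanins, cholesterol and integrins, and neighbouring cells can take them up with their protein and RNA cargo. In hypoxia, HIF1α is stabilised as a protein and drives genes of glucose uptake, angiogenesis and matrix remodelling. Cells sense their sterol supply through SREBP2, and foreign nucleic acid through receptors that induce the interferon response.

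The library labelled PBS stood apart from the Mig libraries. MMP2, a gelatinase of the extracellular matrix, had 6 reads in the PBS library but 3272 (normo-Migs), 3515 (hypo-Migs) and 2836 (CD147KO-Migs) in the others. KRT19, a keratin of ductal epithelium, had 11287 reads with PBS and 75, 52 and 32 in the same order of Mig libraries. CDH1, a gene of epithelial junctions, and GAGE1, a cancer-testis antigen, had no read with PBS and 114 and 309 with normo-Migs. Whether the library labelled PBS holds the same cells as the others was not tested, so what its values stand for is uncertain. They are therefore given only beside the others, and the comparison of hypo-Migs with normo-Migs was also made with the filter and scaling taken from the Mig libraries alone.

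The hypo-Migs and normo-Migs libraries differed little. The median log2 fold change was -0.01, the middle 50% of well-counted genes lay between -0.10 and 0.09, and 97.0% lay within 0.5 of 0. At least 1 on the log2 scale separated the libraries for 12 genes that were higher with hypo-Migs (0.0903% of the well-counted genes) and 13 that were lower (0.0979%). At least 0.5, a 1.41-fold difference, separated them for 211 higher (1.59%) and 194 lower genes (1.46%). Of the abundant genes, 97.5% lay within 0.25, a limit chosen after the values were seen, and only EIF3C passed 1.

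The other pairs of Mig libraries share libraries with this comparison and are given side by side. Hypo-Migs against CD147KO-Migs gave 42 well-counted genes past 1 in either direction (0.316%) and normo-Migs against CD147KO-Migs gave 49 (0.369%), beside 25 (0.188%) for hypo-Migs against normo-Migs. The SD of log2 fold changes over well-counted genes was 0.200 for hypo-Migs against normo-Migs, 0.217 for hypo-Migs against CD147KO-Migs and 0.224 for normo-Migs against CD147KO-Migs. The filter asked for reads in hypo-Migs and normo-Migs alone, so genes low with CD147KO-Migs widened only the other pairs. Over the 13119 genes with at least 50 reads in all 3 Mig libraries, a filter added after the values were seen, 23, 21 and 24 genes passed 1 in the same order of pairs as the SDs, which became 0.197, 0.203 and 0.207. The libraries of Migs from hypoxic and normoxic wild-type cells thus differed about as much as either did from CD147KO-Migs. Over all 19895 genes, 1033 were higher (5.19%) and 825 lower (4.15%) past 1, and 2330 (11.7%) and 1869 (9.39%) past 0.5. Of the 1858 past 1, 1833 (98.7%) were not well counted and 917 had 3 reads or fewer in 1 of the libraries.

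Among the 25 well-counted genes past a log2 fold change of 1, 15 (60.0%) have a near-identical copy elsewhere in the annotation, that is, another gene with at least 95% identity over at least 50% of the shorter transcript, against 1406 of all 13282 (10.6%). Pseudogenes made up 9 of the 25 and 497 of all 13282 well-counted genes. Reads from such genes can be split between the copies, so the families were also summed. The search could not cover 12 well-counted genes with no transcript of sufficient length in the reference, which are counted as having no copy.

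GTF2H2B, a pseudogene of the TFIIH subunit GTF2H2 at chromosome 5, 70415352 to 70448015 (GRCh38, plus strand), had 98 reads with normo-Migs, 501 with hypo-Migs, 81 with CD147KO-Migs and 109 with PBS. Its log2 fold change of 2.10 [1.8, 2.45] was the highest of the well-counted genes. Summed with GTF2H2 and GTF2H2C, the family had 1193 reads with normo-Migs and 1577 with hypo-Migs, and a log2 fold change of 0.17 [0.06, 0.28].

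The GAGE genes, cancer-testis antigens on the X chromosome, held the lowest and the second-highest value. GAGE12J (X, 49322057 to 49329384) had 91 reads with normo-Migs against 439 with hypo-Migs, and 111 with CD147KO-Migs, a log2 fold change of 2.01 [1.71, 2.38]. GAGE1 (X, 49589496 to 49608536) had 309, 79 and 252 reads in the same order, a log2 fold change of -2.17 [-2.58, -1.84]. The members thus differed in opposite directions within 1 family of near-identical transcripts. Their family of 11 genes summed to 778 reads with normo-Migs and 1002 with hypo-Migs, with an interval of the log2 fold change that reached 0 (0.13 [-0.01, 0.27]).

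EIF3C and EIF3CL, which encode the same core subunit of the initiation factor eIF3 and are 99.9% identical, lie on chromosome 16 at 28688558 to 28735730 and at 28379579 to 28403879. EIF3C had 2573 reads with normo-Migs against 1479 with hypo-Migs, and 2227 with CD147KO-Migs, and EIF3CL had 178, 544 and 173. The hypo-Migs library was low for the first and high for the second, with log2 fold changes of -1.03 [-1.13, -0.94] and 1.37 [1.13, 1.63]. Unlike the GAGE family, the pair remained lower with hypo-Migs when summed, at 2023 against 2751 reads and a log2 fold change of -0.68 [-0.76, -0.60]. The sum was 2400 with CD147KO-Migs and 6759 with PBS.

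The other summed families were closer to 0 than their extreme member. SSX2, another cancer-testis antigen, had a log2 fold change of -1.92 [-2.38, -1.55] alone and -0.37 with SSX2B. CKMT1B, a mitochondrial creatine kinase, had -1.16 [-1.32, -1.0] alone and -0.72 with CKMT1A. NOMO3, an endoplasmic reticulum membrane protein, had -0.90 alone and 0.02 with NOMO1 and NOMO2. The pseudogenes SPCS2P4, SMG1P5, PTGES3P1, TCEA1P2, AP001000.1 and AC122718.1 all lay between -0.08 and 0.05 when summed with their copies, whereas DUXAP9 had 1.27 alone and 0.58 summed. Whether reads were assigned differently between copies in the libraries was not tested.

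**Figure D1:**
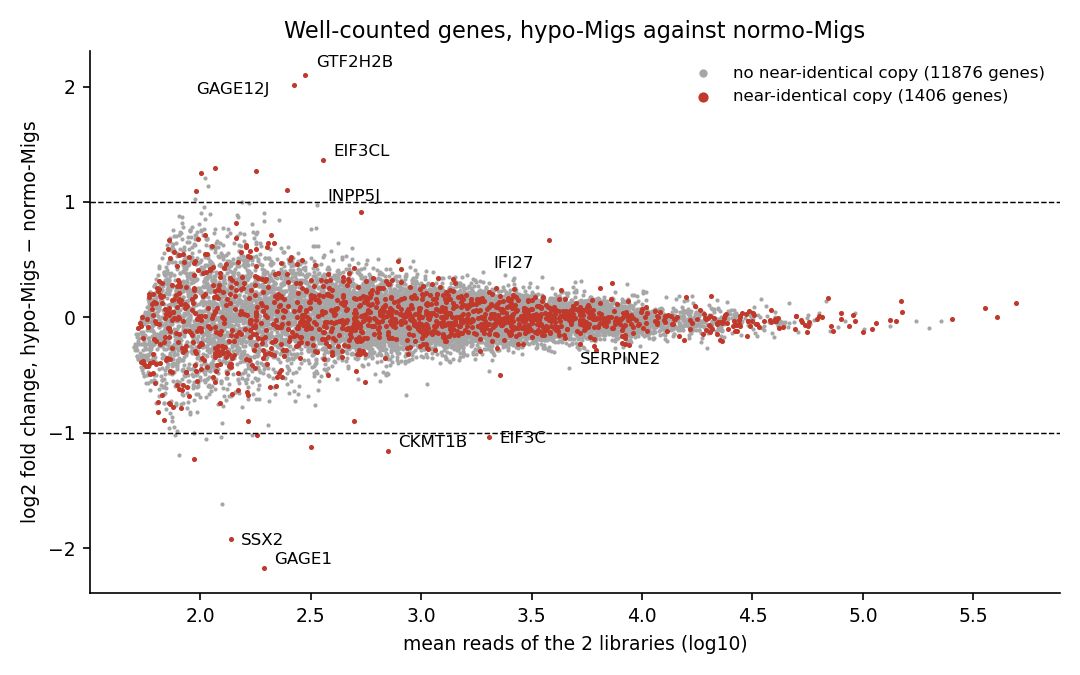
Log2 fold change (hypo-Migs minus normo-Migs) against the mean reads of both libraries (log10 axis) for the 13282 well-counted genes, with the 1406 that have a near-identical copy in red. The spread narrows with more reads, and beyond the dashed lines at an absolute log2 fold change of 1 lie 25 genes, 15 of them red.

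Genes without such a copy numbered 4 of the 12 higher and 6 of the 13 lower ones. MYT1, a zinc finger factor of neural cells, had 56 reads with normo-Migs and 155 with hypo-Migs, a log2 fold change of 1.20 [0.78, 1.70], and it had 140 reads with CD147KO-Migs. TEX9, a testis-expressed gene, had 60, 158 and 80 reads in the order normo-Migs, hypo-Migs and CD147KO-Migs, a log2 fold change of 1.14 [0.72, 1.61]. AKAP5, an anchor of protein kinase A named after its values were seen, had 1.02 [0.59, 1.53]. Against CD147KO-Migs, hypo-Migs was higher beyond counting error for TEX9 (0.77 [0.39, 1.19]) and not for MYT1 (-0.05 [-0.39, 0.29]) or AKAP5 (-0.27 [-0.62, 0.08]). Just under 1, INPP5J, a phosphatase acting on phosphoinositides of the PI3K pathway, had 203, 472 and 425 reads, a log2 fold change of 0.97 [0.74, 1.23], and hypo-Migs and CD147KO-Migs did not differ beyond counting error (-0.05 [-0.24, 0.15]).

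On the lower side, AC007325.4, which lies on an unplaced scaffold and had no transcript in which to search for copies, had 183 reads with normo-Migs against 69 with hypo-Migs, and 43 with CD147KO-Migs, a log2 fold change of -1.61 [-2.06, -1.24]. TDO2, which opens the degradation of tryptophan, had 107, 54 and 80 reads, a log2 fold change of -1.19 [-1.72, -0.74]. ZNF548, a zinc finger gene, had 219, 126 and 150 reads, a log2 fold change of -1.02 [-1.36, -0.71]. Hypo-Migs was the lowest of the Mig libraries for TDO2 and ZNF548, and CD147KO-Migs for AC007325.4. The pseudogene GOLGA2P7 had -1.04, and GLIS1, a zinc finger factor, and SLCO2A1, a prostaglandin transporter, both named after their values were seen, also lay just past -1.

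Among the abundant genes, differences were smaller and better measured. The highest, after AL450405.1, a processed pseudogene related to RPL29 (0.67 alone and -0.07 summed with its copies), were IFI27 (0.39), CSNK1G3 (0.37), IFIH1 (0.37), STEAP4 (0.35), MAGI3 (0.35), KRT17 (0.35) and FAM114A1 (0.35). After EIF3C, the lowest were THOC3 (-0.50, and -0.38 summed with its copy), MIIP (-0.47), SERPINE2 (-0.44), ZNF646 (-0.40), QDPR (-0.39), TGM2 (-0.38) and HTRA2 (-0.37). SERPINE2, a secreted inhibitor of thrombin and urokinase, was at 147 counts per 1000000 reads of the TMM-scaled library (CPM) with normo-Migs against 108 with hypo-Migs, and 67.2 with CD147KO-Migs. Its log2 fold change was -0.44 [-0.50, -0.38], and the CD147KO-Migs library was the lowest. TGM2, which crosslinks matrix proteins, was at 266 CPM with normo-Migs against 204 with hypo-Migs, and 227 with CD147KO-Migs, so hypo-Migs was the lowest. STEAP4, a metalloreductase, was at 33.5, 42.8 and 59.8 CPM, so hypo-Migs lay between the others.

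Programs were then described over lists of genes, each set beside all well-counted genes, of which 48.0% were higher with hypo-Migs. With the trend with GC content and gene length removed, 6053 of all well-counted genes were above 0 and 7223 below it. Of the 38 lists with at least 10 well-counted members, the highest was the interferon response, with a median log2 fold change of 0.17. The lowest were cholesterol synthesis (-0.16), ribosome synthesis (-0.12) and heat shock proteins (-0.09). Most other lists had medians within the middle 50% of all genes.

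**Figure D2:**
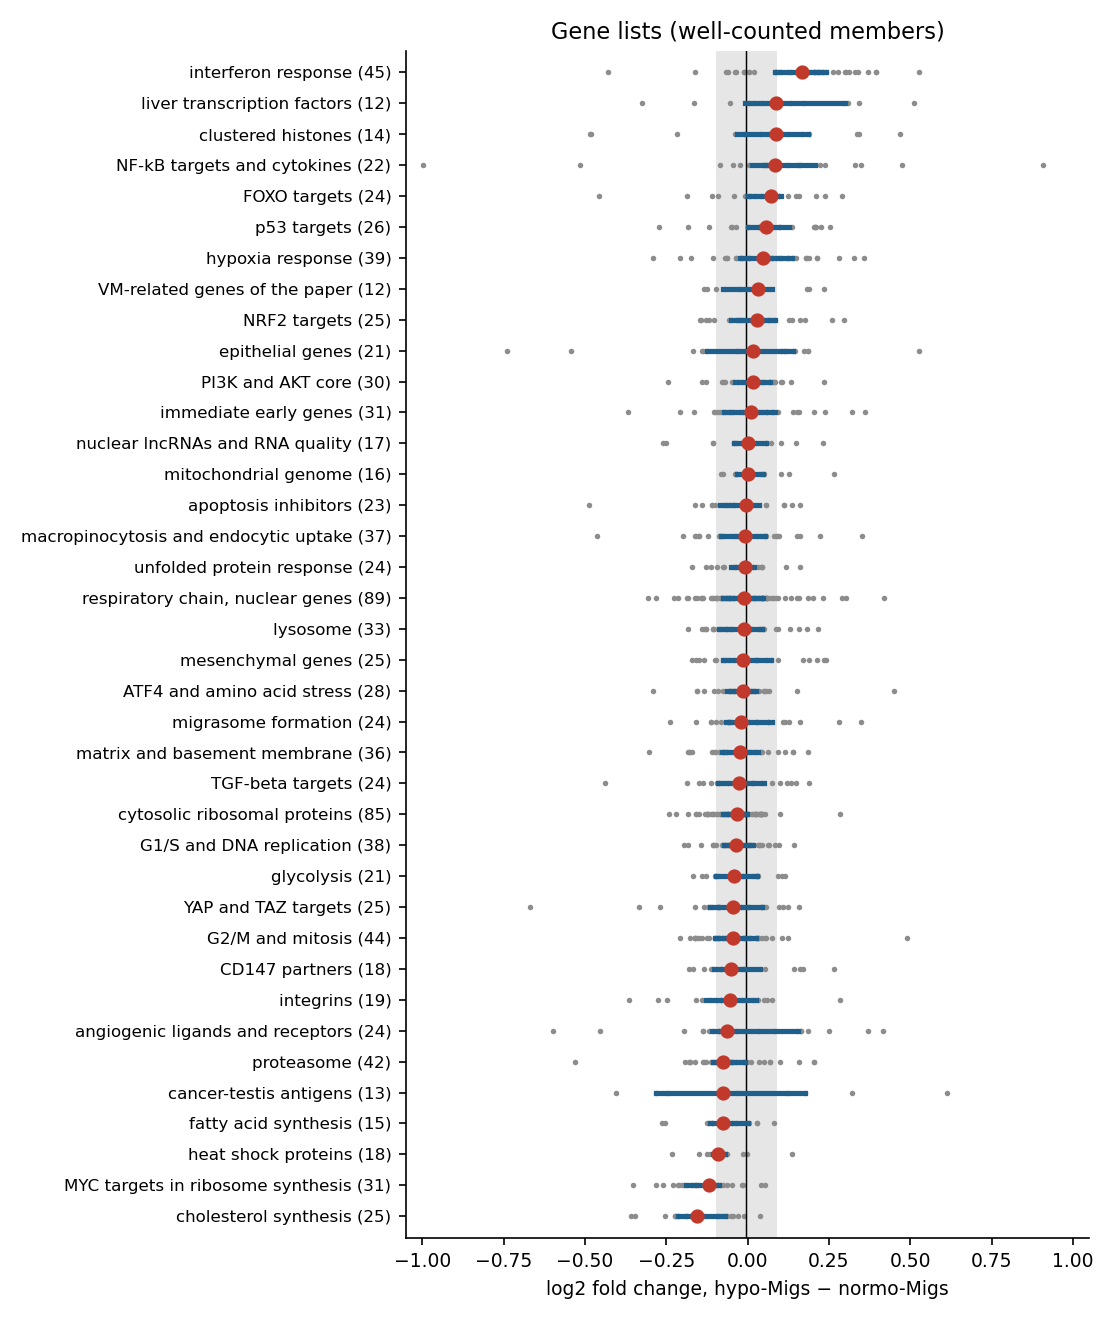
Log2 fold change (hypo-Migs minus normo-Migs) of the well-counted members of the 38 lists with at least 10 such members, whose number stands in brackets. Grey points are genes, bars the quartiles and red points the medians, while the line and the grey band give the median and quartiles of all well-counted genes, and 3 members lie beyond the axis. The interferon response (0.17) and cholesterol synthesis (-0.16) stand at the ends.

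Interferon response genes encode the sensors, signal carriers and antiviral effectors that cells induce through STAT2, IRF9 and partners, which bind the interferon-stimulated response element (ISRE). Of 45 well-counted members, 37 were higher with hypo-Migs than with normo-Migs, 28 with an interval above 0 and 2 with an interval below 0. Over all well-counted genes, these intervals lay above 0 for 17.9% and below 0 for 21.6%. Only TRIM22 passed 0.5.

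Promoter letters are shown for IFI27 and IFIH1, the members among the abundant genes with the largest differences, and for BST2, the member with the most reads per length. Each run is 300 bases long, from 250 before to 50 after the start of the gene, 5′ to 3′ on its own strand, from RefSeq on GRCh38.p14. Capitals mark each match to the ISRE letters (GAAA, any 2 bases and GAAA again) on either strand, and overlapping matches run together. The regions are chr14:94110486-94110785 (plus strand) for IFI27, chr2:162318635-162318934 (minus strand) for IFIH1 and chr19:17405581-17405880 (minus strand) for BST2.
IFI27: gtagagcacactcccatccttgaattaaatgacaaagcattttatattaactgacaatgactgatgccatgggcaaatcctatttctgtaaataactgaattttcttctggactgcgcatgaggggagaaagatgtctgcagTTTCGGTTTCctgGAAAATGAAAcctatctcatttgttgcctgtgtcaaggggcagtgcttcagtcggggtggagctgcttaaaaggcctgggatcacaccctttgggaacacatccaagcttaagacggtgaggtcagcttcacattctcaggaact
IFIH1: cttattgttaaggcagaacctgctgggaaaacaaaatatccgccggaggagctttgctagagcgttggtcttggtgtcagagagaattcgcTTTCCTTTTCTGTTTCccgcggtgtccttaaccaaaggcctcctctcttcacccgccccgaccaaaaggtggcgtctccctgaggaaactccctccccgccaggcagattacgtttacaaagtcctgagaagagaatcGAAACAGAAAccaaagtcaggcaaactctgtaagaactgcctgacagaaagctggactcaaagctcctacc
BST2: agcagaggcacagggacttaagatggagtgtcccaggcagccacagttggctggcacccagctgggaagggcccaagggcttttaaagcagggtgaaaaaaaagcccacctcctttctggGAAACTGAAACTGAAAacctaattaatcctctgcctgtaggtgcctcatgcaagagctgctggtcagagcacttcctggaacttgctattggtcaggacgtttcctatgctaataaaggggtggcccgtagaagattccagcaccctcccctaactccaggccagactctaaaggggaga
The letters occur 2 times in IFI27, 3 times in IFIH1 and 2 times in BST2. Of the 35 well-counted members with a promoter in the table, 20 (57.1%) had a match, against 996 of 27305 promoters in all (3.65%) and 2.75% of those of well-counted genes. Members with a match had a median log2 fold change of 0.22 and the 15 without of 0.13.

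Among the sensors and transducers, IFIH1 (MDA5), a cytoplasmic sensor of double-stranded RNA, was at 37.5 CPM with normo-Migs, 48.5 with hypo-Migs, 44.9 with CD147KO-Migs and 47.1 with PBS. Its log2 fold change was 0.37 [0.27, 0.47], and normo-Migs was the lowest library. DDX58 (RIG-I), the companion sensor, had a log2 fold change of 0.17 [0.06, 0.28] and STAT2 of 0.20 [0.12, 0.28]. IRF9, the DNA-binding partner of STAT2, was the lowest member at -0.43 [-0.84, -0.04], from 115 and 100 reads, and it has an overlapping copy with which the sum gave -0.26 [-0.62, 0.10].

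Among the effectors, TRIM22, an antiviral ubiquitin ligase, was at 7.81 CPM with normo-Migs, 11.3 with hypo-Migs, 12.8 with CD147KO-Migs and 10.3 with PBS, a log2 fold change of 0.53 [0.31, 0.75]. IFI27, a mitochondrial protein induced by type I interferon, was at 43.8, 57.6, 52.9 and 111 CPM in the same order, a log2 fold change of 0.39 [0.30, 0.49]. IFIT1, which binds viral RNA lacking cap methylation, was at 119, 146, 157 and 86.8 CPM, a log2 fold change of 0.30 [0.25, 0.36]. In all 3 genes normo-Migs was the lowest of the Mig libraries. PARP14, SAMD9, OAS2, IFI44L and MX1 lay between 0.30 and 0.39. BST2 (tetherin), which holds budding particles at the cell surface, was at 595, 590, 632 and 261 CPM, a log2 fold change of -0.01 [-0.04, 0.02], and its promoter carries the ISRE letters. The class I molecules HLA-B (0.02 [-0.03, 0.08]) and HLA-C (0.01 [-0.04, 0.05]) were near 0. These 3 genes of surface proteins did not differ beyond counting error.

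Set beside CD147KO-Migs, the low library of the 3 was normo-Migs. Between CD147KO-Migs and normo-Migs the list had a median log2 fold change of 0.22 with 43 of 45 members higher (over all well-counted genes, normo-Migs was the higher of this pair in 52.2%), and between hypo-Migs and CD147KO-Migs a median of -0.04. Summed over the list, the level was 4536 CPM with normo-Migs, 4929 with hypo-Migs, 5087 with CD147KO-Migs and 4780 with PBS.

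Cholesterol synthesis runs from acetyl-CoA through mevalonate, farnesyl diphosphate and squalene to lanosterol and cholesterol, and its genes are switched on together by SREBP2 when sterols are scarce. Of 25 genes, all well counted, 24 were lower with hypo-Migs, with 17 intervals below 0 and none above it. None reached -0.5, and 3 reached -0.25.

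INSIG1, which retains SREBP2 in the endoplasmic reticulum and is itself an SREBP2 target (chromosome 7, 155297776 to 155310235), was the lowest member. It was at 42.6 CPM with normo-Migs, 33.2 with hypo-Migs, 31.2 with CD147KO-Migs and 76.8 with PBS, a log2 fold change of -0.36 [-0.47, -0.25]. The hypo-Migs and CD147KO-Migs libraries did not differ beyond counting error (0.09 [-0.03, 0.21]). SREBF2, which encodes SREBP2 itself, had -0.09 [-0.14, -0.05].

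Of the mevalonate enzymes, MVK was at 18.3 CPM with normo-Migs against 14.4 with hypo-Migs, and 17.7 with CD147KO-Migs, a log2 fold change of -0.35 [-0.51, -0.18], and hypo-Migs was the lowest. The next kinase, PMVK, had -0.25 [-0.38, -0.12], the decarboxylase MVD -0.22 [-0.35, -0.10] and FDPS, which makes farnesyl diphosphate, -0.22 [-0.31, -0.14]. SQLE, which oxidises squalene, had -0.06 [-0.16, 0.03]. SQLE was thus among the members that did not differ beyond counting error, and the only member above 0 was STARD4, a cytosolic sterol carrier, at 0.04 [-0.06, 0.13]. With the trend with GC content and gene length removed, STARD4 was at -0.04. Of the 25 members 24 were then below 0, and the exception was another gene.

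Between CD147KO-Migs and normo-Migs the median of the list was -0.05 with 19 of 25 members lower, and between hypo-Migs and CD147KO-Migs it was -0.09. The summed level was 2218 CPM with normo-Migs, 2033 with hypo-Migs, 2116 with CD147KO-Migs and 1872 with PBS, so that hypo-Migs was the lowest of the Mig libraries. The letters TCACNCCAC of a sterol element were found in 1 of 18 promoters of the list, that of SREBF2, in 1.15% of all promoters and in 1.07% of those of well-counted genes. Fatty acid synthesis, driven by the related SREBP1, had a median of -0.08 with 11 of 15 members lower. FASN, the fatty acid synthase, was at 582, 485 and 501 CPM (normo-Migs, hypo-Migs, CD147KO-Migs), a log2 fold change of -0.26 [-0.29, -0.24], whereas SCD, the most abundant member, had -0.04 [-0.06, -0.02].

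Growth-related lists were also lower with hypo-Migs by small amounts. MYC targets in ribosome synthesis, which act in rRNA transcription, modification and assembly, had a median of -0.12 with 29 of 31 members lower and 26 intervals below 0. MYC itself was at -0.02 [-0.05, 0.02]. SRM, a spermidine synthase, was at 375 CPM with normo-Migs against 325 with hypo-Migs, and 313 with CD147KO-Migs, a log2 fold change of -0.20 [-0.24, -0.17]. PPAN, a ribosome assembly factor that overlaps a readthrough gene, was the lowest member (-0.35 [-0.60, -0.11]) and RRS1, another assembly factor, the highest (0.05 [-0.03, 0.14]). CD147KO-Migs was also lower than normo-Migs for 27 of the 31, with a median of -0.10, and hypo-Migs and CD147KO-Migs had a median difference of 0.00. The letters CACGTG, bound by MYC and related factors, were in 8 of 25 promoters of the list (32.0%), in 7.43% of all promoters and in 10.3% of those of well-counted genes, and the median log2 fold change was -0.12 with and -0.12 without them.

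Heat shock proteins, the chaperones that HSF1 induces, had a median of -0.09 with 17 of 18 members lower. CD147KO-Migs was further below normo-Migs (median -0.15, 16 of 18 lower), and hypo-Migs was above CD147KO-Migs (0.06). HSPA1A, the inducible HSP70, was at 84.7 CPM with normo-Migs, 72.1 with hypo-Migs, 67.3 with CD147KO-Migs and 423 with PBS, a log2 fold change of -0.23 [-0.31, -0.16]. Its near-identical twin HSPA1B had -0.11 [-0.19, -0.04], and their sum with a further copy -0.17. The proteasome had a median of -0.07 with 33 of 42 members lower, and its lowest member was the immunoproteasome subunit PSMB10 (-0.53 [-0.84, -0.23], 202 and 164 reads), while PSMB9, also an interferon-induced subunit, was the highest at 0.20 [0.06, 0.35]. The immunoproteasome subunits therefore stood at both ends of the list. Cytosolic ribosomal proteins had a median of -0.03 with 64 of 85 lower, and G2/M genes one of -0.05 with 30 of 44 lower, or -0.07 with 37 of 44 lower with the trend with GC content and gene length removed. For G2/M genes CD147KO-Migs lay further below normo-Migs, at a median of -0.16 with 41 of 44 lower.

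Genes of the hypoxia response had a median of 0.05 with hypo-Migs against normo-Migs, and 27 of 39 were higher, 16 with an interval above 0 and 4 below it. HIF1A was at 422 CPM with normo-Migs, 479 with hypo-Migs, 466 with CD147KO-Migs and 474 with PBS, a log2 fold change of 0.18 [0.15, 0.21] that was 0.12 with the trend with GC content and gene length removed, and normo-Migs was again the lowest. PPP1R3C, which directs glycogen synthesis in hypoxia, had 682 reads with normo-Migs against 1030 with hypo-Migs, and 741 with CD147KO-Migs, a log2 fold change of 0.36 [0.22, 0.50] and the highest of the list. LOX, which crosslinks collagen, was at 48.2, 55.9 and 43.5 CPM, a log2 fold change of 0.21 [0.12, 0.31]. For both, hypo-Migs was the highest of the Mig libraries.

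Some well-known targets did not differ beyond counting error. VEGFA, the main angiogenic growth factor, was at 130 CPM with normo-Migs against 133 with hypo-Migs, and 121 with CD147KO-Migs, a log2 fold change of 0.03 [-0.02, 0.09]. CA9, a carbonic anhydrase used as a marker of hypoxia, was at 32.8, 32.3 and 21.9 CPM, a log2 fold change of -0.02 [-0.14, 0.09]. STC2, a secreted glycoprotein, was the lowest member (-0.29 [-0.36, -0.23]). Glycolysis had a median of -0.04, or -0.01 with the trend with GC content and gene length removed, with 13 of 21 lower, and none of its members reached 0.25 in either direction. Between CD147KO-Migs and normo-Migs the hypoxia list had a median of -0.05 and glycolysis of -0.13, and between hypo-Migs and CD147KO-Migs 0.14 and 0.05. The letters ACGTG of the HIF site were in 17 of 30 promoters of the hypoxia list (56.7%), in 21.6% of all promoters and in 27.0% of those of well-counted genes, and the median log2 fold change was 0.04 with and 0.10 without them.

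NF-kB targets and cytokines had a median of 0.08 with 17 of 22 members higher, and their values were spread more widely. CCL2, which attracts monocytes, had 62 reads with normo-Migs against 139 with hypo-Migs, and 91 with CD147KO-Migs, a log2 fold change of 0.91 [0.49, 1.38]. IL6 had 110, 181 and 180 reads, a log2 fold change of 0.48 [0.13, 0.84]. IL11, a cytokine of the IL6 family, had 119, 69 and 48 reads, a log2 fold change of -1.0 [-1.47, -0.58]. The cytokines thus differed in both directions, and each rested on few reads. The neutrophil attractants CXCL5 (0.33 [0.21, 0.45]) and CXCL1 (0.24 [0.04, 0.44]) were higher and CXCL3 (-0.52 [-0.94, -0.11]) lower with hypo-Migs. The p53 targets (median 0.06, 20 of 26 higher) and FOXO targets (0.07, 18 of 24 higher) also had medians above 0. PDK4, which restrains pyruvate oxidation and is the most abundant FOXO target, was at 406 CPM with normo-Migs against 451 with hypo-Migs, and 387 with CD147KO-Migs, a log2 fold change of 0.15 [0.12, 0.18].

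The study proposes that hypo-Migs carrying CD147 induce vasculogenic mimicry (VM), in which tumour cells line channels as endothelial cells do, through PI3K, AKT and TWIST1. Its evidence included Western blots of phosphorylated PI3K, phosphorylated AKT and TWIST1 protein, which mRNA levels do not measure. From the RNA-seq it reported that TWIST1 rose most with hypo-Migs and did not rise with Migs lacking CD147. The 12 well-counted VM-related genes, named by the study and so no independent evidence of a direction, had a median of 0.03 with 7 higher, and of 0.00 with 6 higher with the trend with GC content and gene length removed. TWIST1, a transcription factor of epithelial-mesenchymal transition, was at 13.6 CPM with normo-Migs, 12.7 with hypo-Migs, 17.4 with CD147KO-Migs and 1.77 with PBS. The hypo-Migs and normo-Migs libraries did not differ beyond counting error (-0.10 [-0.28, 0.09], or -0.05 with that trend removed), and CD147KO-Migs was the highest library. SNAI1, of the same group of factors, was at 11.2, 12.8, 15.6 and 2.35 CPM, a log2 fold change of 0.19 [-0.00, 0.38]. AKT1 (0.04 [-0.02, 0.10], or 0.08 with that trend removed) was near 0 and AKT2 was at -0.07 [-0.13, -0.01].

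CDH5, which encodes VE-cadherin, was not well counted, with 30 reads with normo-Migs, 72 with hypo-Migs, 59 with CD147KO-Migs and 84 with PBS, a log2 fold change of 0.98 [0.39, 1.69]. CDH1, which encodes E-cadherin, had 114, 123, 112 and 0 reads, a log2 fold change of -0.12 [-0.51, 0.25]. MMP2 was at 96.0 CPM with normo-Migs against 87.6 with hypo-Migs, and 81.0 with CD147KO-Migs, a log2 fold change of -0.13 [-0.20, -0.06]. VE-cadherin mRNA was thus higher with hypo-Migs than with normo-Migs beyond counting error, but at 1.79 CPM or less in both. At the mRNA level, which does not measure pathway activity, the PI3K and AKT components had a median of 0.02 with 19 of 30 higher and none past 0.25. With the trend with GC content and gene length removed, their median was 0.00 with 15 of 30 higher. The angiogenic ligands and receptors had a median of -0.06 with 15 of 24 lower, and the apoptosis inhibitors one of -0.00 with 13 of 23 lower. PDGFB, a growth factor for pericytes, was higher (0.37 [0.18, 0.56]) and PGF, a ligand of VEGF receptor 1, lower (-0.60 [-1.04, -0.19], 109 and 84 reads).

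Genes that make and take up Migs differed little. BSG, which encodes CD147, was at 999 CPM with normo-Migs, 925 with hypo-Migs, 971 with CD147KO-Migs and 1395 with PBS. Its log2 fold change was -0.11 [-0.13, -0.09], or -0.06 with the trend with GC content and gene length removed. The knockout was made in the cells that released the Migs, so these values are no check of it. TSPAN4, the tetraspanin that marks migrasomes, was at 60.6, 51.3, 62.6 and 97.3 CPM, a log2 fold change of -0.24 [-0.33, -0.15] and the lowest of the 24 migrasome genes, whose median was -0.02. ITGA5, another marker, had -0.16 [-0.20, -0.12] and EOGT 0.01 [-0.17, 0.18]. In the recipient cells, TSPAN4 and ITGA5 mRNA were thus lower with hypo-Migs and EOGT mRNA did not differ beyond counting error. With that trend removed, TSPAN4 was at -0.18, ITGA5 at -0.14 and EOGT at -0.03. The study measured these markers as proteins of isolated Migs and of the cells that released them, so these values are no check of that result. The highest migrasome gene was TSPAN7, also a tetraspanin, at 0.35 [0.04, 0.67] from 145 and 218 reads. The 37 well-counted genes of macropinocytosis and endocytic uptake had a median of -0.01 with 17 higher, or of -0.02 with 16 higher with that trend removed. The intervals of these genes lay above 0 for 8 and below 0 for 12. Among receptors for lysophosphatidic acid, which stimulates macropinocytosis, LPAR6 had 7 reads with normo-Migs and 13 with hypo-Migs, LPAR1 had 194 and 292 (0.35 [0.09, 0.62]) and LPAR5 had 120 and 102 (-0.46 [-0.87, -0.08]). LPAR6 was too low for a difference to be detectable at this depth (0.54 [-0.77, 2.22]).

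The labelled cell type was set against its markers. Of 4 epithelial markers, all well counted, KRT8 and KRT18 were among the most abundant genes in each library. CDH1, of the same list, had only 114 reads with normo-Migs, 123 with hypo-Migs, 112 with CD147KO-Migs and 0 with PBS. Of 8 hepatocyte markers only HNF4A was well counted, at 146 reads with normo-Migs and 246 with hypo-Migs (0.51 [0.22, 0.82]). In these libraries ALB, AFP, APOB, TTR and TF had no read, which allows up to 3 reads, and the 8 markers together were at 4.34 CPM with normo-Migs, 6.40 with hypo-Migs, 4.60 with CD147KO-Migs and 4.66 with PBS. Of 8 macrophage and leukocyte markers, 5 had 3 reads or fewer in the normo-Migs library and 5 in the hypo-Migs library, PTPRC and TYROBP among them at 0, and the sum was 6.66 CPM with normo-Migs and 6.08 with hypo-Migs. Of 8 endothelial markers only EGFL7 and PECAM1 were well counted, and the sum was 39.6 and 37.4 CPM. Fibroblast markers summed to 218 CPM with normo-Migs against 226 with hypo-Migs, with 24.0 in the PBS library, led by COL1A1 at 104 and 100 CPM, with COL1A2 and PDGFRA at 0 in both. Members of this list differed beyond counting error in both directions. DCN, which encodes decorin, had 77 reads with normo-Migs against 156 with hypo-Migs, while CD147KO-Migs gave 138 (0.77 [0.38, 1.20]), and FAP had 313, 305 and 281 (-0.27 [-0.51, -0.04]).

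Base composition moved with the comparison. From the lowest to the highest of 8 bins of GC content, the median log2 fold change between hypo-Migs and normo-Migs went from 0.05 to -0.07, and between hypo-Migs and CD147KO-Migs from 0.05 to -0.08. Between normo-Migs and CD147KO-Migs it stayed between -0.00 and 0.02, so the trend appeared in both pairs that hold the hypo-Migs library. Across the 13276 well-counted genes with a GC value, which are not independent replicates, Pearson's r of the fold change with GC content was -0.20 for hypo-Migs against normo-Migs, -0.21 for hypo-Migs against CD147KO-Migs and -0.02 for normo-Migs against CD147KO-Migs. With the trend with GC content and gene length removed, the median of the interferon response was 0.14 with 39 of 45 members above 0, that of cholesterol synthesis -0.14 with 24 of 25 below 0, that of ribosome synthesis -0.10 with 28 of 31 below 0, and that of the hypoxia response 0.05 with 26 of 39 above 0. Over all well-counted genes, the same removal gave a median of -0.01 with 6053 above 0 and 7223 below 0. The direction of these 4 lists was thus the same without the trend. Several other medians, not all given here, moved by more than 1.5 times. Among them, the PI3K and AKT components went to 0.00 with 15 of 30 above 0, and the VM-related genes to 0.00 with 6 of 12. Glycolysis went to -0.01 with 8 of 21 and G2/M genes to -0.07 with 7 of 44. Macropinocytosis and endocytic uptake went to -0.02 with 16 of 37, and the unfolded protein response to -0.03 with 9 of 24. Median GC content was 48.8% in the interferon list, 50.5% in cholesterol synthesis, 53.5% in ribosome synthesis and 48.4% over all well-counted genes.

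**Figure D3:**
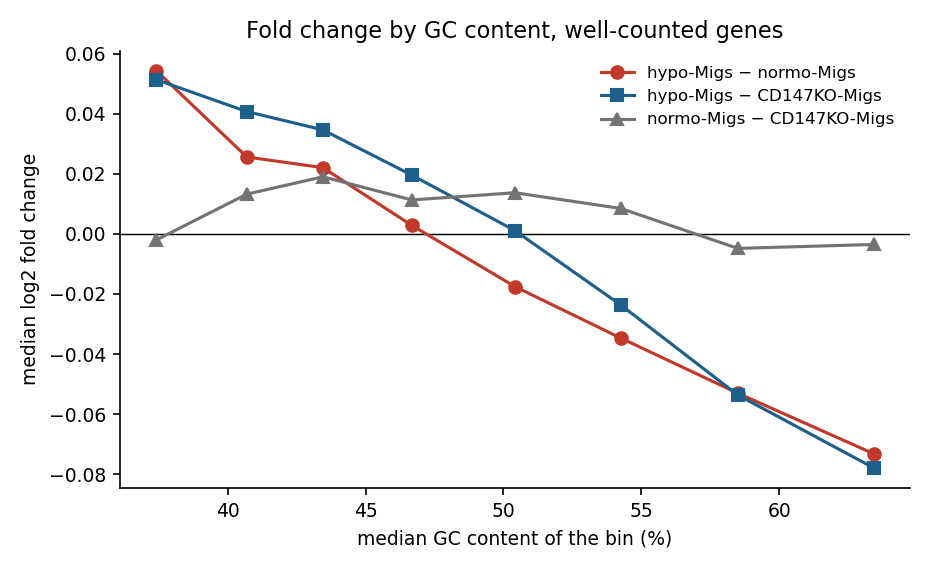
Median log2 fold change of well-counted genes in 8 bins of GC content (percent of the transcript) for the 3 pairs of Mig libraries. Both pairs with hypo-Migs go down from 0.05 to -0.07 and -0.08, and the pair without it stays between -0.00 and 0.02.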

How the data were processed

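The libraries hold RNA of MHCC-97H cells treated with normo-Migs, hypo-Migs, CD147KO-Migs or PBS, 1 library each. Per the submitters' processing notes, base calling used CASAVA 1.8, and reads were trimmed with fastp, aligned to hg38 with HISAT2 2.0.5 and counted with featureCounts 1.5.0-p3. Strand handling is not given in the sources used here. The authors deposited raw counts per gene and FPKM, a value per kilobase of gene and per library size. All 58735 genes matched GENCODE 29 by Ensembl identifier, and 27 symbols that looked like dates or differed between the tables were replaced by its names.

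Counts were scaled by TMM (edgeR 4.0.16 in R 4.3.3), with a prior count of 2 on the log2 scale. Fold changes were described without a test because 1 library per condition leaves no residual degrees of freedom. The fold of 1 is that of the study, whose methods name DESeq2. Intervals were computed with scipy 1.17.1, copies were found with minimap2 2.31, and figures were drawn with matplotlib 3.10.9. The steps were tested on simulated data.

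Named genes were the 12 with the highest lower bound and the 12 with the lowest upper bound of the interval among well-counted genes, the 8 highest and 8 lowest abundant genes, the highest, lowest and most abundant member of each of 45 lists, and genes the study names. Further list members were named after their values were seen, as were the search for copies, the fits without the PBS library and the filter over the 3 Mig libraries. The comparison, its members and the lists were chosen with earlier results of these data known. Alternatives concerned scaling (total reads, DESeq2 1.42.0 size factors, protein-coding genes), the prior count, FPKM, minimum reads, a trend with GC content and length, and edgeR's exact binomial test on the reads, which compares the libraries and not the conditions. Some genes of these lists are counted in them but not reported by name here.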

Additional observations from a re-analysis of the deposited data

How the results depend on the processing

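The number of well-counted genes past a log2 fold change of 1 (12 higher and 13 lower with hypo-Migs) and of 0.5 (211 and 194) depended on the reads required. With at least 20 reads in both libraries the counts were 71 and 61 past 1 and 569 and 499 past 0.5. With at least 200 they were 0 and 3, and 22 and 27. Over all genes with at least 10 reads in 1 library they were 1033 and 825, and 2330 and 1869. On log2(FPKM + 1), which draws low genes to 0, they were 3 and 4, and 21 and 31. Past 1, protein-coding genes alone gave 7 higher, and genes without a near-identical copy gave 4 higher and 6 lower. With the filter and scaling taken without the PBS library the counts were 12 and 13 past 1, and 211 and 194 past 0.5. Of 1203 values of named genes under the alternatives, 0 changed sign among genes at an absolute log2 fold change of 0.5 or more, and 57 lay outside the counting interval of the reported value, 23 of them on FPKM. Of 378 list medians, 376 moved by no more than the median distance from value to bound in the members' counting intervals. The exceptions were the mitochondrial genome with scaling by total reads (0.0152) and with the trend with GC content and length removed (-0.0166), against -0.00. In 10 lists, whose reported medians were at most 0.03 from 0, the sign turned under 1 alternative or more.

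Depth limits genes of few reads, and 1 library per condition limits every comparison. No paired analysis was possible because each condition has 1 library and the labels give no replicate numbers.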

Other observations

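Some values outside the programs above also had normo-Migs as the lowest of the Mig libraries. Of 33 genes of liver plasma proteins only 7 were well counted, of which 6 were higher with hypo-Migs than with normo-Migs (median log2 fold change 0.14) and all 7 were higher with CD147KO-Migs than with normo-Migs (median 0.47). C3, the central complement component and the most abundant of them, was at 618 CPM with normo-Migs, 678 with hypo-Migs, 782 with CD147KO-Migs and 588 with PBS. CP, the copper-binding ferroxidase of plasma, was at 18.5, 24.8, 27.1 and 1.83 CPM. AKR1C1, a reductase of steroids and aldehydes and the highest of the NRF2 targets, was at 175, 215, 243 and 4.43 CPM, and its sum with the near-identical AKR1C2 had a log2 fold change of 0.28. The NRF2 list had a median of 0.03 with 13 of 25 members higher with hypo-Migs, and of -0.01 with 12 of 25 after removal of the trend with GC content and length. KRT18 was at 1749, 1971, 2074 and 1065 CPM, a log2 fold change of 0.17 [0.16, 0.19] with hypo-Migs against normo-Migs.

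Other genes were lower with hypo-Migs. MT2A, a metallothionein that binds zinc and copper, was at 255 CPM with normo-Migs against 200 with hypo-Migs, and 219 with CD147KO-Migs, a log2 fold change of -0.35 [-0.40, -0.31]. NT5E (CD73), which makes adenosine at the cell surface, was at 28.9, 18.1 and 13.8 CPM, a log2 fold change of -0.67 [-0.81, -0.53]. MALAT1, a nuclear long noncoding RNA, was instead highest with hypo-Migs, at 248, 291 and 244 CPM, and the list of nuclear noncoding RNAs had a median of 0.00, and of -0.03 with that trend removed.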
